A study of Homo sapiens with 2 samples.

Results

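Ribosome assembly in the nucleolus is described here for 40 human genes chosen by name, not by a measured value. Earlier results of these data were known when the genes were chosen. They encode subunits and factors of RNA polymerase I, the core proteins of box C/D and box H/ACA small nucleolar ribonucleoproteins (snoRNPs), nucleolar scaffold proteins and chaperones, and assembly factors of the small and the large ribosomal subunit. All 40 were found among the 46425 gene symbols listed, and all 40 were among the 13665 genes with at least 20 counts summed over both libraries, which are called the tested genes. The series asked how the transcriptome of NK92, an established human natural killer (NK) cell line, differs after exposure to PPMX-T003, an antibody that blocks transferrin receptor 1, the receptor for iron-loaded transferrin. The PPMX-T003 group is a dish exposed to 10 µg/mL of the antibody for 6 h, and the control group is a dish without it. Both came from the same culture, split after 18 h. Stranded libraries of poly(A) RNA were sequenced, 1 library per condition. The control library held 46766416 counts and the PPMX-T003 library 43178462.

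With 1 library per condition, no difference given here has a replicate check and no p-value is given. The column names of the deposited table read 0 h and 6 h, although both dishes had the same additional culture by the methods. The 0 h values were taken as the control, and a difference in harvest time cannot be told apart from the exposure. In bulk RNA, fewer cells that express a gene and less of its RNA per cell cannot be told apart either. All 12 NK cell markers had at least 20 counts, with a summed level of 4382 CPM (counts scaled to the size of the library) in the control and 4851 CPM in the PPMX-T003 library, and IL2RB was the most abundant of them with 56260 and 55986 counts. Of 6 T cell markers, 2 had at least 20 counts (CD28 and TRAC), while CD3D, CD3G and CD5 were at 0 in both libraries. MS4A1 of the B cell list, FCN1 of the monocyte list and all 4 erythroid markers were also at 0. The T cell list summed to 80.3 and 72.2 CPM with CD28 on top, the B cell list to 3.95 and 2.09 CPM with PAX5 on top, and the monocyte list to 5.06 and 4.61 CPM with ITGAM on top. Of the hepatocyte and fibroblast list, DCN had 13 and 7 counts and the other 4 genes were at 0.

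Ribosome production starts when RNA polymerase I copies the ribosomal DNA repeats into a long precursor RNA in the nucleolus. The small-subunit processome folds and cuts this precursor, box C/D snoRNPs methylate it, box H/ACA snoRNPs turn some of its uridines into pseudouridine, and assembly factors then guide the small and the large subunit to the cytoplasm. The process consumes much of the energy of a growing cell, and MYC and mTOR are known to drive it in proliferating lymphocytes. Poly(A) selection removes most ribosomal RNA, and the levels of the messengers of this machinery are the subject here. Reads of the product were left in both libraries, with 109248 counts in the control and 90799 in the PPMX-T003 library over the 12 genes of the ribosomal DNA repeats that had reads. The precursor genes among them had 7264 and 21526 counts, but they contain the separately listed mature RNA genes, so the division of reads between them is uncertain and no level of ribosomal RNA synthesis is read from these counts.

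The MYC-MAX dimer and related factors are known to recognise the E-box CACGTG, which reads the same on both strands, and ribosome biogenesis promoters are known for it. Promoter windows of RefSeq (GRCh38.p14), from 250 bases before to 50 after a start site, were searched for these letters. Of the 40 genes, 33 had at least 1 window, with 41 windows in all. No window was used for NOP58, BOP1, RRP12, RRP1B, NOLC1, TCOF1 and POLR1E. The E-box was found for 15 of the 33 genes (45.5%) and in 15 of their 41 windows (36.6%). Of all 35116 windows of the same length, 7.26% held it, and of 9109 tested protein-coding genes with a window, 13.1% had it in at least 1. By role, it was found for 5 of 7 genes of the small-subunit processome, 3 of 5 nucleolar scaffold proteins and chaperones, 2 of 4 box H/ACA core proteins, 1 of 2 box C/D core proteins, 2 of 4 late small-subunit factors and 2 of 4 large-subunit factors. None of the 7 genes of RNA polymerase I and its factors with a window had it. A match describes the letters only, and binding was not measured. The windows printed here, 30 bases each, give at least 1 gene of every role in which the E-box was found, both copies of NOP10, and RRP9 and UTP20, which differed in opposite directions. Capitals mark the E-box, and each sequence reads 5′ to 3′ on the strand of its gene.
FBL, box C/D core, chr19:39846356-39846385, minus strand: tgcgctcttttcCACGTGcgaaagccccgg
NOP10, box H/ACA core, far copy, chr15:34343289-34343318, minus strand: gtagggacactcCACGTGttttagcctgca
NOP10, box H/ACA core, near copy, chr15:34343130-34343159, minus strand: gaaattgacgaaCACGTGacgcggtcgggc
DDX21, nucleolar helicase, chr10:68956604-68956633, plus strand: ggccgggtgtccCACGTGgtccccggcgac
RRP9, processome, chr3:51941892-51941921, minus strand: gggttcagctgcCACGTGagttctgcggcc
UTP20, processome, chr12:101280083-101280112, plus strand: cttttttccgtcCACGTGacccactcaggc
BYSL, late small subunit, chr6:41921515-41921544, plus strand: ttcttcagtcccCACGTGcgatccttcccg
PES1, large subunit, chr22:30591880-30591909, minus strand: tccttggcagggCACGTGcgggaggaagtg

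The E-boxes of these genes lay close to the start of transcription. Of the 16 found, 15 began within 40 bases of the start site, a distance chosen after the positions were seen, against 27.7% of the 2821 in all windows. The exception was the far copy of NOP10, which began at position -170, counted from the start site, while the near copy began at -11. Positions behind the start count the start site as the first base, and none is numbered 0. RRP9 had its E-box at -5, across the start site itself, UTP20 at -10 and DDX21 at -31. In FBL (position 7), PES1 (14) and BYSL (29) it lay behind the start site, inside the transcribed part. The E-box was also found for 29 other ribosome biogenesis genes (22.1% of those with a window) and for 4 of 62 cytosolic ribosomal protein genes (6.45%). The difference between the libraries ran both ways with and without the letters. Genes with an E-box had a median log2 difference of 0.027, with 9 above and 6 below 0, and the 18 genes with a window and no E-box had 0.0031, with 9 above and 9 below 0.

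NK92 cells carried these messengers at high levels in both libraries. Levels of different genes are compared on the authors' TPM, which scale reads by transcript length and library size and were deposited as whole numbers. The median over the 40 genes was 122 TPM in the control and 121.5 TPM in the PPMX-T003 library, and 27 of the 40 lay above 100 TPM in the control. The highest was NPM1 (nucleophosmin, a nucleolar chaperone), with 4527 TPM in the control and 4327 TPM in the PPMX-T003 library. NCL (nucleolin, which binds the precursor RNA) followed with 2207 and 2161 TPM. These abundant proteins took 48.1% of the reads of the 40 genes in the control and 48.4% in the PPMX-T003 library. The methyltransferase FBL (fibrillarin) reached 718 and 740 TPM. At the low end stood WDR12 with 34 and 33 TPM, UTP15 with 35 and 33 TPM and UTP20 with 36 and 31 TPM. Even WDR12 lay above 64.9% of the genes with a TPM above 0 in either library. TPM rests on the transcript lengths used by the authors' software, so the order of neighbouring genes is approximate.

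**Figure D1:**
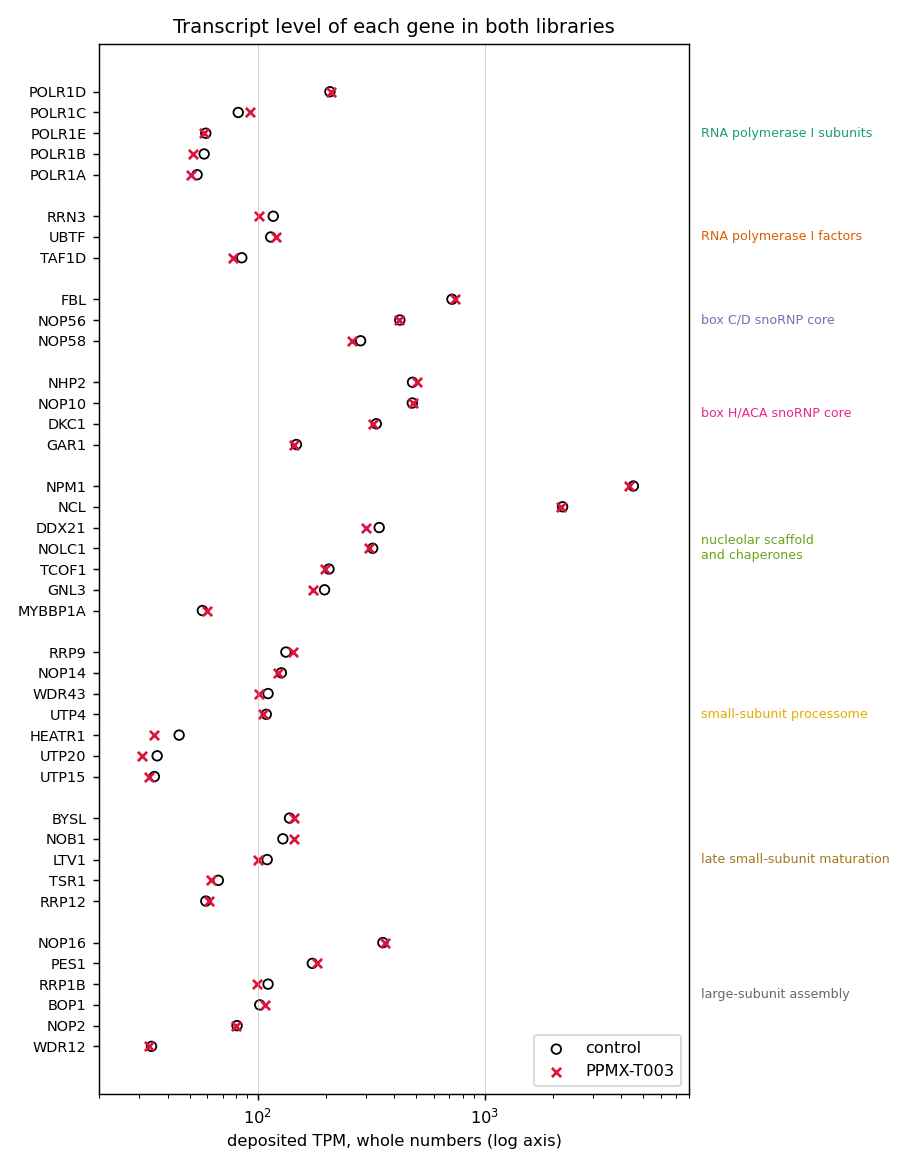
Deposited TPM of each gene on a log axis in the control library (circles) and the PPMX-T003 library (crosses), grouped by role. Levels run from 34 TPM (WDR12) to 4527 TPM (NPM1) in the control, and both marks of a gene lie close together.

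The comparison asked which of these messengers differed after 6 h of PPMX-T003. The median of the group lay close to 0, and small differences went both ways. NOB1, POLR1C, RRP9, UBTF and BOP1 were higher by at least 1.1-fold in the PPMX-T003 library, and HEATR1, RRN3 and UTP20 were lower by at least 1.1-fold. BOP1 and UBTF lay just past it, and within it under median-of-ratios scaling and on the TPM scale. No gene reached 1.2-fold apart from HEATR1. The 40 genes together held 1.41% of all counts in either library.

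Differences are given as log2 CPM of the PPMX-T003 library minus that of the control, scaled between libraries by TMM, a trimmed mean of log ratios. Their median over the 40 genes was 0.0089, with 22 above and 18 below 0, beside a median of -0.0020 over all tested genes. With median-of-ratios scaling the median was -0.00089 and the split 20 to 20. With upper quartile scaling the median was 0.021, with 25 above and 15 below 0 and MYBBP1A as another gene past 1.1-fold (0.15), and after a fit on GC content and length with the longest transcripts it was -0.019, with 15 above and 25 below 0. No direction is therefore given for the group. Median-of-ratios scaling left 3 genes higher and 4 lower by 1.1-fold, in place of 5 and 3, with UBTF and BOP1 at 0.13 and no longer past it, and DDX21 past it at -0.14. BOP1 was also within 1.1-fold when library size alone was used. The 5 genes higher by 1.1-fold are 12.5% of the 40, where 24% of all tested genes were higher, and the 3 lower genes are 7.5%, where 25.2% were lower. Low counts scatter more, and the least counted of the 40 had 4512 counts summed. Among the 4590 genes with at least that many, a background chosen after seeing the data, 11.3% were higher and 19.3% lower. The share of higher genes was thus near this background, and that of lower genes was below it on the CPM scale. On the TPM scale, 2 of the 40 genes (5%) were higher and 7 (17.5%) lower by 1.1-fold, with 14 above and 26 below 0 and a median of -0.043. On that scale 12.8% of all tested genes were higher and 26.4% lower, around a median of 0 (29.5% had equal rounded values), and of the well counted genes 5.05% were higher and 31.0% lower, around -0.065. The share of higher genes was again near that of the well counted genes, and that of lower genes below it. UBTF (0.073), RRP9 (0.10) and BOP1 (0.082) were within 1.1-fold on the TPM scale. GNL3 (-0.16), DDX21 (-0.19), POLR1B (-0.15) and RRP1B (-0.16) were newly lower by 1.1-fold there.

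A 95% Clopper-Pearson interval was set around each difference. It covers the counting of reads only and compares the libraries, not the conditions. This interval lay above 0 for 15 of the 40 genes (37.5%), below 0 for 11 (27.5%) and held 0 for 14. Of all tested genes, 21.8% had an interval above 0 and 23.9% below 0, and of the 4590 well counted genes 30.9% and 38.3%. The SD of the differences was 0.11 among the 40 genes and 0.14 among the well counted genes.

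**Figure D2:**
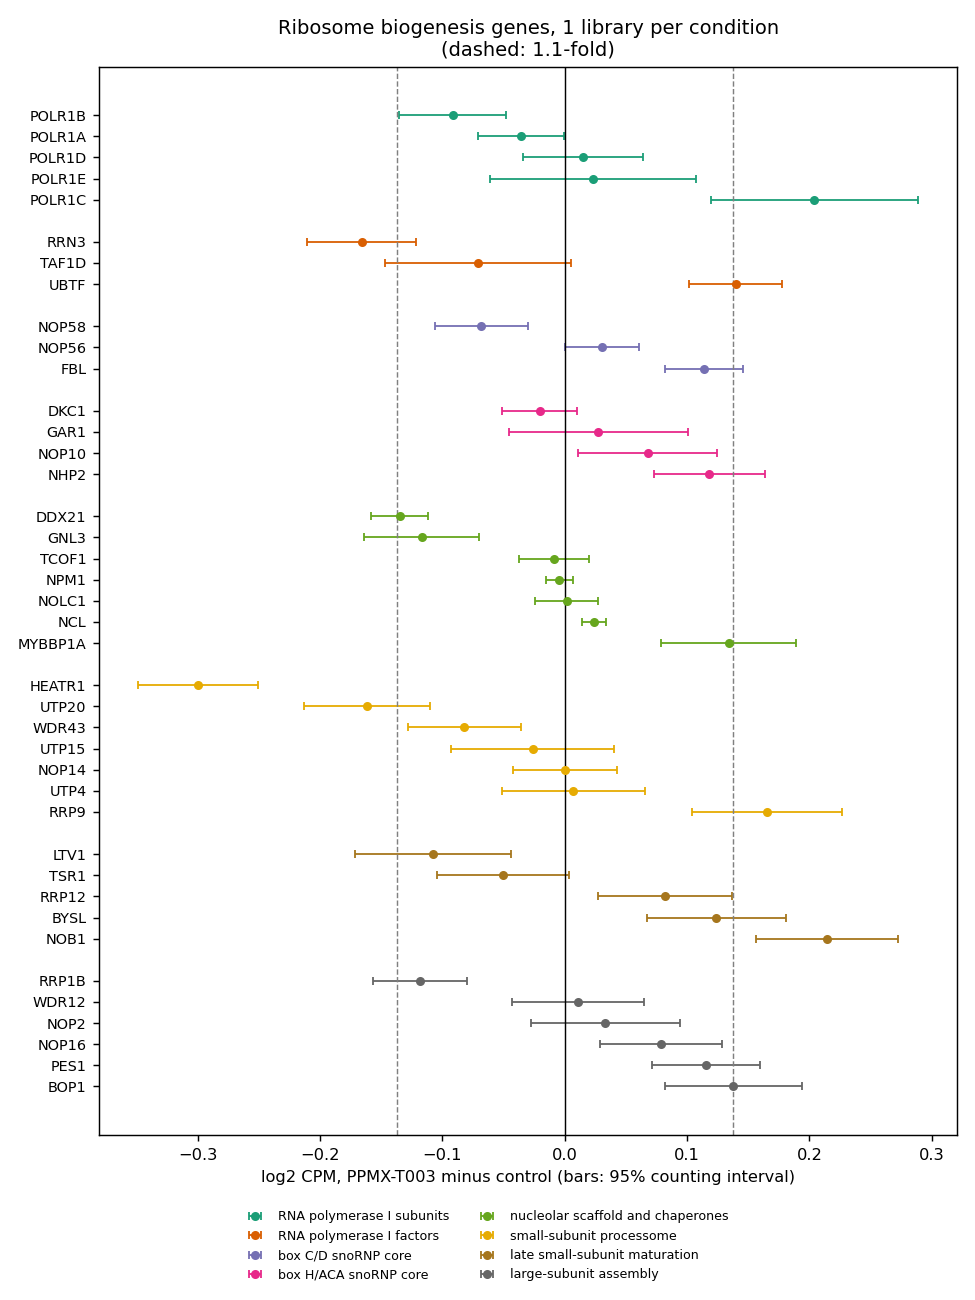
Log2 CPM difference (PPMX-T003 minus control) of each gene with its 95% counting interval, by role, and dashed lines at 1.1-fold. HEATR1 (-0.30) and NOB1 (0.21) mark the ends, and most roles have genes on both sides of 0.

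RNA polymerase I subunits went in different directions within the same enzyme. POLR1C, a subunit shared with RNA polymerase III (NCBI Gene ID 9533, chr6:43517089-43562407), had 2188 counts in the control and 2324 in the smaller PPMX-T003 library. This is a difference of 0.20 (interval 0.12 to 0.29), the largest of the 5 subunits. POLR1A, the largest subunit, differed by -0.036 (-0.071 to -0.00082), and POLR1B, the next largest, by -0.092 (-0.14 to -0.048). Once a fit on the GC content and length of transcripts was removed, POLR1A had the other sign, at 0.015, and POLR1B lay at -0.022. On the TPM scale POLR1A lay at -0.081 and POLR1B at -0.15, past 1.1-fold. POLR1D, also shared with RNA polymerase III, differed by 0.015 and POLR1E by 0.023, both with intervals that held 0. The median of the 5 subunits was 0.015.

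The factors that bring RNA polymerase I to its promoter also parted. UBTF (UBF, which coats active ribosomal DNA, Gene ID 7343) had 11037 and 11212 counts, a difference of 0.14 (0.10 to 0.18). RRN3 (TIF-IA, which couples the polymerase to the promoter complex and responds to growth signals, Gene ID 54700) had 9069 and 7452 counts, a difference of -0.17 (-0.21 to -0.12). RRN3 has near-identical pseudogenes, and those listed took 1084 and 1019 reads, or 11.95% and 13.7% of the reads of RRN3, so its value is uncertain where reads were divided between copies. TAF1D, a subunit of the promoter selectivity factor, differed by -0.071 with an interval that held 0, and 8 small RNA genes share its exons. The wider RNA polymerase I machinery, 13 genes that include subunits common to other polymerases, had a median of 0.041. It was 0 on the TPM scale and 0.049 after the fit. By 1.1-fold, 4 of them were higher (30.8%) and 1 lower (7.69%). Of all tested genes 24% were higher and 25.2% lower, and of the well counted genes 11.3% and 19.3%. After the fit these 4 higher genes lay within 1.1-fold. TTF1 (0.17) and POLR1G (-0.22), named after their values were seen, were then past it. Named by the bound of the interval nearest to 0, TAF1B, another selectivity factor subunit, lay at -0.37, and the shared subunits POLR2L at 0.23 and POLR2E at 0.16. TAF1C, also of the selectivity factor and named after its value was seen, lay at 0.24 (0.12 to 0.36). TAF1B and TAF1C thus differed in opposite directions. TAF1A (0.041) and TBP (0.0099), also of this factor, had intervals that held 0, as TAF1D did. After the fit TAF1C lay at 0.13, within 1.1-fold, and TAF1B at -0.30.

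Among the 40 genes are 3 of the 4 core proteins of the box C/D snoRNP. FBL, the methyltransferase, differed by 0.11 (0.082 to 0.15), NOP56 by 0.030, with the lower end of its interval at 0 to 2 decimals, and NOP58 by -0.068 (-0.11 to -0.030). Their transcripts have a GC content of 57.8%, 54.3% and 41.3% in the same order. The remaining core protein, SNU13, was counted with the other processome genes and is named after its value was seen. It lay at 0.16 (0.11 to 0.21), past 1.1-fold and above FBL, at a GC content of 52.9%, so the differences did not follow GC content over all 4. SNU13 was within 1.1-fold on the TPM scale (0.11), after the fit on GC content and length (0.10) and with the longest transcripts (0.084). In the box H/ACA core the order of the differences did not follow GC content throughout. NHP2 differed by 0.12 (0.073 to 0.16) at a GC content of 57.1%, NOP10 by 0.068 (0.011 to 0.12) at 46.9%, GAR1 by 0.027 at 46.7% and the pseudouridine synthase DKC1 (dyskerin) by -0.021 at 47.9%. DKC1 had the lowest difference and not the lowest GC content, and the intervals of GAR1 and DKC1 held 0. None of the 7 snoRNP core proteins among the 40 genes reached 1.1-fold. The signs in both cores depend on the processing. On the TPM scale 2 of the 4 box H/ACA proteins lay above 0 (median -0.0087, against 0.048 on the CPM scale) and 1 of the 3 box C/D proteins (-0.017, against 0.030). After the fit with the longest transcripts, none of the 7 lay above 0, with NHP2 at -0.041, NOP10 at -0.053 and FBL at -0.030. Of the 9 factors that assemble snoRNPs, 2 were higher and 2 lower by 1.1-fold (22.2% each). Of all tested genes 24% were higher and 25.2% lower, and of the well counted genes 11.3% and 19.3%. Among these factors were RPAP3 at -0.26, ZNHIT3 at 0.20 and the helicase RUVBL2 at 0.18. NAF1, named after its value was seen, was the other lower gene, at -0.20. On the TPM scale NAF1 was higher, with 15 TPM in the control and 18 TPM in the PPMX-T003 library. After the fit on GC content and length, RPAP3 (-0.13) and RUVBL2 (0.058) were within 1.1-fold, and ZNHIT3 (0.19) and NAF1 (-0.17) past it. The median of these factors was -0.0038, against 0.036 on the TPM scale.

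The abundant nucleolar proteins barely differed. NPM1 went from 135922 to 124914 counts, a difference of -0.0046 (-0.016 to 0.0065), and NCL from 180490 to 169204, a difference of 0.024 (0.014 to 0.034). At this depth an interval can leave 0 at a difference far below 1.1-fold, as for NCL. The signs of both depended on the processing. NCL lay at -0.030 on the TPM scale and -0.0061 after the fit on GC content and length, and NPM1 at -0.065 and 0.047. The snoRNP chaperone NOLC1 (0.0015) and TCOF1 (treacle, -0.0087), both partners of RNA polymerase I, had intervals that held 0. The rest of the group was more spread. DDX21, a helicase of rRNA processing, lay at -0.135, just inside 1.1-fold, and the GTPase GNL3 (nucleostemin) at -0.12 (-0.16 to -0.070). MYBBP1A, a repressor of ribosomal RNA synthesis, lay at 0.13 (0.079 to 0.19), also just inside. On the TPM scale DDX21 (-0.19) and GNL3 (-0.16) were past 1.1-fold, and MYBBP1A lay at 0.073. After the fit on GC content and length, DDX21 lay at -0.0079, GNL3 at -0.072 and MYBBP1A at 0.069.

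The small-subunit processome held the gene that differed most before the fits on GC content and length. HEATR1, a large scaffold protein also needed for ribosomal DNA transcription (Gene ID 55127, chr1:236549005-236604516), had 7858 counts in the control and 5886 in the PPMX-T003 library. This is a difference of -0.30 (-0.35 to -0.25), or 0.813 of the control level. After the fit HEATR1 lay at -0.17 and POLR1C, at 0.19, differed more, also with the longest transcripts (-0.17 and 0.19). UTP20, another giant scaffold protein (Gene ID 27340, chr12:101280105-101386618), had 6694 and 5518 counts and a difference of -0.16 (-0.21 to -0.11). RRP9, which binds the U3 snoRNA, went the other way, with 4262 and 4407 counts and a difference of 0.17 (0.10 to 0.23). WDR43 differed by -0.082 (-0.13 to -0.036), and UTP15 (-0.026), NOP14 and UTP4 (0.0070) had intervals that held 0. The median of the 7 genes was -0.026. The other 41 processome genes had a median of -0.0036, with 5 higher (12.2%) and 3 lower (7.32%) by 1.1-fold. Of all tested genes 24% were higher and 25.2% lower, and of the well counted genes 11.3% and 19.3%. Named by the bound of the interval nearest to 0, RCL1 lay at -0.22, ESF1 at -0.21 and NOC4L at 0.23.

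Late maturation of the small subunit held the gene that was highest before the fits on GC content and length. NOB1, the nuclease that makes the final cut of the small-subunit RNA (Gene ID 28987, chr16:69741871-69754926), had 4623 and 4944 counts, a difference of 0.21 (0.16 to 0.27). BYSL (bystin) differed by 0.12 (0.067 to 0.18) and RRP12 by 0.082 (0.027 to 0.14). LTV1, which leaves the small subunit late in its maturation, lay at -0.11 (-0.17 to -0.044), and TSR1 at -0.051 with an interval that held 0. The group median was 0.082, against -0.024 in 10 other late factors, of which 0 were higher and 1 was lower by 1.1-fold. After the fit on GC content and length the medians were 0.028 and 0.031, and with the longest transcripts 0.027 and -0.0053. The lower gene was the helicase DHX15, at -0.17, while TRMT112 lay at 0.090 and PNO1, a partner of NOB1, at 0.097.

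Of the large-subunit assembly genes, 5 of 6 lay above 0, with a median of 0.056. This did not hold under other processing, since 3 of 6 lay above 0 on the TPM scale (median 0.0071) and after the fit (0.0041), and 2 of 6 with the longest transcripts in the fit (-0.018). BOP1 and PES1, which form the PeBoW complex with WDR12, differed by 0.14 (0.082 to 0.19) and 0.12 (0.071 to 0.16), while WDR12 itself differed by 0.011 with an interval that held 0. NOP16 lay at 0.079 (0.029 to 0.13), the methyltransferase NOP2 at 0.033 with an interval that held 0, and RRP1B at -0.12 (-0.16 to -0.080). The 52 other large-subunit factors were evenly divided on the CPM scale, with a median of -0.00024 and 26 on each side of 0. Their median was -0.056 on the TPM scale, 0.019 after the fit and -0.00018 with the longest transcripts. Among them, MDN1, a giant ATPase that strips assembly factors, was at -0.33, EFL1, which releases the factor that blocks subunit joining, at -0.32, and ZNF622 at 0.24.

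Seen over the whole pathway, ribosome assembly genes outside the 40 also lay on both sides of 0. The 149 tested genes of the 7 other assembly and processing lists had a median of 0.00084, with 18 higher and 13 lower by 1.1-fold. Of all tested genes 24% were higher and 25.2% lower, and of the well counted genes 11.3% and 19.3%. The median of the 149 genes depended on the processing, at -0.055 on the TPM scale and 0.032 after the fit. The RNA exosome, which trims precursor RNA, had a median of -0.00071 over 14 genes, with 2 higher and 1 lower. EXOSC1 lay at 0.22, EXOSC7 at 0.16 and the exosome helicase MTREX at -0.17. The RNase MRP and P proteins had a median of 0.024 over 10 tested genes of 11, with 2 higher and 0 lower. The higher genes were RPP40 and RPP38, both at 0.15, but RPP40 was lower on the TPM scale, with 30 TPM in the control and 28 TPM in the PPMX-T003 library. RPP38, named after its value was seen, had an interval that held 0 (-0.026 to 0.33), and RPP14 lay at 0.11, within 1.1-fold. The 11 subunits that belong to RNA polymerase III alone had a median of -0.0032, with 2 higher and 2 lower. Its paralogous subunits POLR3G (-0.27) and POLR3GL (0.34) differed in opposite directions.

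Most messengers of ribosomal proteins, the building blocks themselves, lay above 0. The 78 cytosolic ribosomal protein genes had a median of 0.10, with 76 above 0, 20 higher and 0 lower by 1.1-fold. Of the 13665 tested genes, 6785 lay above 0. The count of 76 holds for the CPM scale only. For example, RPL4 (1618 and 1607 TPM) and RPL10 (1009 and 1005 TPM) were lower on the TPM scale. RPL35 lay at -0.040 after the fit on GC content and length, and RPL12 at -0.048 with the longest transcripts. The list median stayed above 0 in each case. By the interval bound RPS28 (0.38), RPS29 (0.31) and RPLP1 (0.25) are named. The 20 higher genes are 25.6% of the list, near the 24% of all tested genes and above the 11.3% of the well counted genes. The median of the 40 assembly genes lay below theirs, and whether the lists differ was not tested. Among 6 regulators of MYC and mTOR activity the median was 0.17, with 5 above and 1 below 0. MYC lay at 0.18, its antagonist MXI1 at 0.28 and the mTOR partner RPTOR at 0.17. The gene below 0, named after its value was seen, was MTOR itself, at -0.065 (-0.11 to -0.022). After the fit, the ribosomal protein median was 0.050 and that of the regulators 0.10, beside 0.032 for the 149 other assembly genes. With the longest transcripts the ribosomal protein median was 0.036, beside 0.0039 for those genes, so the gap between these medians was smaller after either fit. On the TPM scale the medians were 0.047 for the ribosomal proteins, 0.097 for the regulators and -0.055 for the 149 genes, each lower than on the CPM scale.

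What the 40 genes share beyond their role is a relation to base composition. Genes with GC-rich transcripts were higher in the PPMX-T003 library and genes with AT-rich transcripts lower. Across the 40 genes the difference followed the GC content of the transcripts with a Pearson r of 0.72 and a Spearman rho of 0.73, given as a description, since genes are not independent replicates. The relation to the logarithm of transcript length was weaker, with an r of -0.38. All 40 genes had a transcript in GENCODE release 29, from which both were computed. The 20 genes of lower GC content (40.2% to 49.5%) had a median difference of -0.047, with 13 below 0. The 20 of higher GC content (50.3% to 65.7%) had a median of 0.098, with 15 above 0. A slope in the same direction ran through 10070 genes with at least 200 counts, whose median went from -0.13 in the lowest of 10 GC classes to 0.12 in the highest. What sets this slope was not tested.

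Once the fit across those genes was removed, the SD of the 40 differences went from 0.11 to 0.071, and the lower and higher GC groups had medians of -0.0070 and 0.015. The range from the lowest to the highest of the 3 box C/D proteins among the 40 went from 0.18 to 0.029, but with SNU13, which lay at 0.10 after the fit, it went from 0.23 to 0.12. That of the box H/ACA proteins went from 0.14 to 0.044. FBL, NOP56 and NOP58 then lay at 0.0070, -0.011 and 0.017. PeBoW did the reverse. WDR12, with the lowest GC content of the 40 (40.2%), lay at 0.16, while PES1 lay at 0.051 and BOP1, with the highest (65.7%), at -0.010.

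Of the 8 genes past 1.1-fold, 3 were still past it after the fit. POLR1C lay at 0.19, NOB1 at 0.17 and HEATR1 at -0.17. UBTF (0.11), RRN3 (-0.097), RRP9 (0.063) and UTP20 (-0.022) kept their sign and lay within 1.1-fold, and BOP1 changed its sign. With only the longest transcript of a gene in the fit, a choice made after seeing the data, POLR1C (0.19) and HEATR1 (-0.17) were past 1.1-fold and NOB1 (0.13) was not. WDR12, within 1.1-fold as measured, was past it after the fit (0.16) and with the longest transcripts (0.15). HEATR1 shares exons on its strand with another annotated gene, AL359921.1, and so do 8 more of the 40 with neighbours that are mostly small RNA genes, so the division of their reads is uncertain. POLR1C and NOB1 were not found to share exons.

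**Figure D3:**
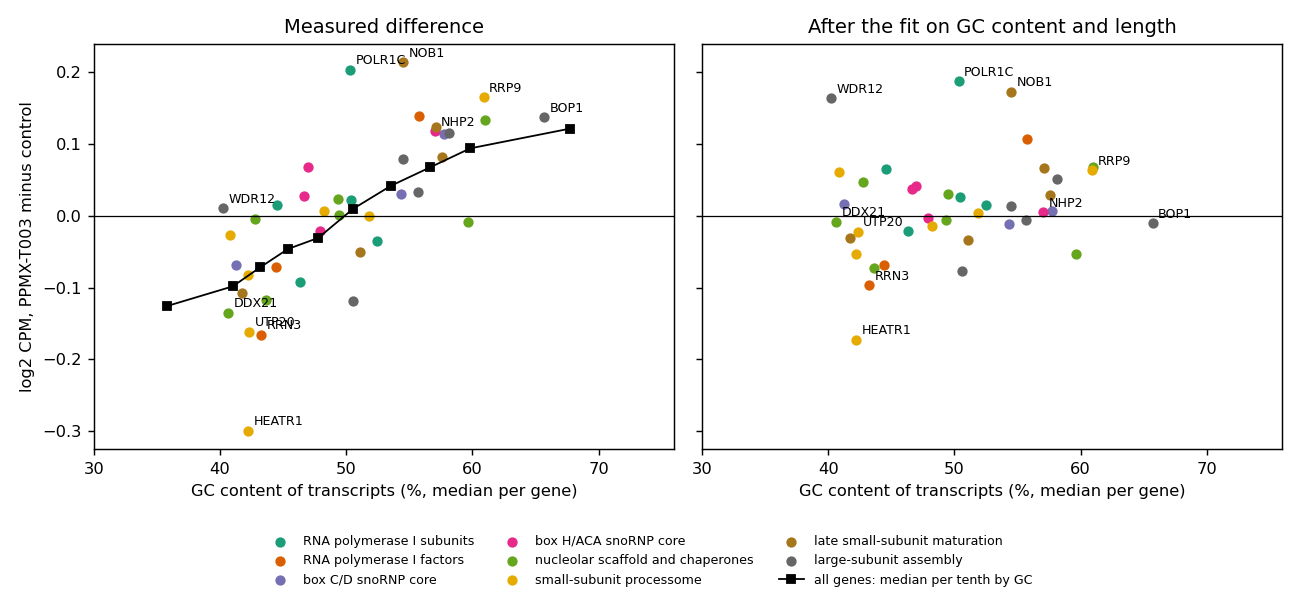
Log2 CPM difference of the 40 genes against the GC content of their transcripts in percent, as measured (left) and after the fit on GC content and length (right). Black squares on the left are medians of 10070 genes with at least 200 counts in 10 GC classes. On the left these medians run in the same direction as the 40 genes, and HEATR1, NOB1, POLR1C and WDR12 stand apart on the right.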

How the data were processed

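The members and gene lists were chosen with earlier results of these data known. According to the methods and the submitters' processing notes, the authors trimmed reads with Trimmomatic 0.38, mapped them to hg38 with HISAT2 2.2.0, counted them with StringTie 2.1.3b and named edgeR 3.17 for the comparison. The authors deposited read counts per gene, unscaled. Commas inside the larger numbers were taken out. The deposited TPM are StringTie values that the authors had rounded, and they were handled as a score. StringTie divides reads of shared exons by an estimate, which counting intervals do not cover.

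From the counts, TMM scaling (30% of log ratios and 5% of levels trimmed; factors 1.00 and 0.999) and log2 CPM (prior count 2) were computed with numpy 2.4.6 and pandas 2.3.3 under Python 3.11.15. Intervals used scipy 1.17.1, the fit used statsmodels 0.14.6 and plots used matplotlib 3.10.9. The design assumed plain counts. The commas led to a general unit for these columns, and no count model was fitted, which 1 library per condition would not allow either. Rows sharing a symbol were summed, which concerned 2 rows. Genes with at least 20 counts summed were tested. Counting intervals are 95% Clopper-Pearson intervals on the PPMX-T003 part of a gene's reads, as a scaled log2 ratio. The fold of 1.1 was set low because few well counted genes passed 2-fold in earlier results.

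All 40 members are named. Of each other list, up to 3 genes are named by the interval bound nearest to 0, among those with at least 100 counts whose interval leaves 0. Besides the other genes that this rule leaves unnamed, 2 single genes, which it or the marker lists would name, are not reported here. GC content and length are medians over a gene's protein-coding transcripts in GENCODE release 29, and older symbols were matched through RefSeq synonyms. A robust fit on both used genes with at least 200 counts and gave 0.090 per 10 points of GC content and -0.030 per doubling of length, on the log2 scale. Gene coordinates and promoter windows are from RefSeq GRCh38.p14, in which all 40 members matched by NCBI Gene ID. The alternatives were other scalings, prior counts of 0.5 and 5, other backgrounds, folds of 1.2 and 2, means, TPM, the fit removed, and leaving out members that share exons. Scripts were tested on simulated data. Connectivity scores were not analysed here.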

Additional observations from a re-analysis of the deposited data

How the results depend on the processing

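No paired analysis was possible because there is 1 library per condition. For the same reason no replicate could be left out. The median of the 40 genes moved by less than the typical half-width of their counting intervals (0.049) under every alternative apart from TPM, where it was -0.043. With TPM plus 1, 2 genes were higher and 7 lower by 1.1-fold, and the median gap between the TPM and the count difference was -0.052. With median-of-ratios scaling 3 genes were higher and 4 lower, and 14 intervals lay below 0. After the fit on GC content and length was removed, 3 were higher and 1 lower, and BOP1 changed sign to -0.010. With the longest transcripts, an alternative chosen after seeing the data, 2 were higher and 1 lower, and BOP1 was at -0.013. At 1.2-fold 0 were higher and 1 lower, and at 2-fold 0 and 0, which follows from the threshold. Without the 9 genes that share exons, 7 intervals lay below 0. Left out with an interval below 0 were HEATR1, GNL3, LTV1 and NOP58, and with an interval above 0 NOP56 and BOP1. For the moves with TPM, another scaling and the fits, the cause was not tested.

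Scaling moved the median of all tested genes between -0.012 and 0.0099. The 2 prior counts moved no member beyond its interval. After the fit, 15 of the 40 genes moved by less than the half-width of their interval. The sign changed for 10 of the 40, or 11 with the longest transcripts, and BOP1 was the only one of these past 1.1-fold before. With TPM, 18 moved by less than that half-width and 8 changed sign. Among background shares, genes with at least 1 count gave 29.5% higher and 30.4% lower, and protein-coding genes 20.7% and 23.4%. Counting intervals could not be recomputed for TPM or after the fits. Each of the 40 genes had at least 4512 counts, but depth still limits the calls: the interval held the 1.1-fold limit for 6 of the 8 genes past it, all but HEATR1 and NOB1, and for 10 of the 32 within it.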
